A study of Mus musculus with 6 samples.

Results

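The miR-17-92 cluster and its paralogues were examined by small RNA sequencing of left ventricles from aged mice. The 10 mature microRNAs (miRNAs) were taken by name from the deposited table of 698 miRNAs, by a rule that uses no level, although earlier results of these data were known when the set was chosen. They are mmu-miR-17, its opposite arm mmu-miR-17*, mmu-miR-18a, mmu-miR-19a, mmu-miR-20a, mmu-miR-19b and mmu-miR-92a of the miR-17-92 cluster, and mmu-miR-106b, mmu-miR-93 and mmu-miR-25 of the miR-106b-25 cluster. The prefix mmu stands for mouse. The comparison was between 3 wild-type (WT) mice and 3 mice of genotype aMHC403/+, which carry the R403Q change in 1 copy of Myh6 and are labelled as a model of HCM (hypertrophic cardiomyopathy, a disease of thickened heart muscle). Myh6 encodes alpha-myosin heavy chain, the main myosin of the adult mouse ventricle. All 6 mice were more than 50 weeks old, and the whole ventricle was used, so the cell that a miRNA came from was not resolved. The sources used here give neither strain nor sex. The samples are titled as biological replicates and were treated as separate animals.

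A miRNA guides the silencing machinery to messenger RNAs that pair with its seed, bases 2 to 8 from the 5′ end, so miRNAs with one seed share many targets. The miR-17-92 cluster is 1 primary transcript, Mir17hg, cut into several hairpins, and it is known for promoting cell proliferation under the control of Myc and E2F factors. Mice that lack it die around birth with heart and lung defects. In mouse heart its miR-18a and miR-19 are known to repress the matrix genes Ctgf and Thbs1, and miR-92a restrains vessel growth. The miR-106b-25 cluster lies within Mcm7, a gene of the DNA replication machinery.

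The mature sequences show which members can be compared with one another. They are given 5′ to 3′ as RNA from RefSeq (GRCm38.p6), with the seed in capitals. All 10 matched RefSeq exactly, at 12 loci.
miR-17: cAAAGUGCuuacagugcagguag
miR-20a: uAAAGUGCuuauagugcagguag
miR-106b: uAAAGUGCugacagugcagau
miR-93: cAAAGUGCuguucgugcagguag
miR-18a: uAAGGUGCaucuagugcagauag
miR-19a: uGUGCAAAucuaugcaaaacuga
miR-19b: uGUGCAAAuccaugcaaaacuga
miR-92a: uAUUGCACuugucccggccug
miR-25: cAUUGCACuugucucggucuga
miR-17*: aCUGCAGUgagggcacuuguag

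The first 4 share 1 seed across both clusters, and miR-92a and miR-25 share another. miR-18a and the miR-19 members have seeds of their own that are not found in the miR-106b-25 cluster. With positions counted from 1 at the 5′ end, miR-17 differs from miR-20a by C1U and C12U, and miR-19a differs from miR-19b by U11C alone. miR-92a differs from miR-25 by U1C, C14U and C18U over the length of miR-92a. The sources used here do not say how reads with a mismatch were assigned, so the split between such near copies, miR-19a and miR-19b above all, is uncertain.

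The Mir17 hairpin gives rise to both miR-17 and miR-17*, shown here in capitals in their order along the precursor, because the table holds both arms at countable levels.
Mir17 hairpin: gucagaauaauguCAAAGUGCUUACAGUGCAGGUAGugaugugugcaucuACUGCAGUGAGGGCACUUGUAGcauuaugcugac

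By position in GRCm38.p6, miR-17 is the first (chromosome 14, 115043684 to 115043706, plus strand) and miR-92a the last (115044476 to 115044496) of 7 mature miRNAs spread over 813 bp. All 7 overlap an exon of the noncoding gene Mir17hg in GENCODE M21. miR-106b (chromosome 5, 138165787 to 138165807, minus strand), miR-93 (138165574 to 138165596) and miR-25 (138165332 to 138165353) lie on the strand of Mcm7 within 476 bp, outside the exons of its protein-coding transcripts. miR-19b and miR-92a have a second, identical copy on chromosome X, at 52741991 to 52742013 and 52741854 to 52741874 on the minus strand, in the miR-106a-363 cluster. Their reads cannot be assigned to one copy. The sources used here name no build for the deposited table.

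Levels are reads per 1000000 miRNA reads (RPM), as deposited. The libraries held 2483486 to 5223636 miRNA reads, so that 1 read was worth 0.191 to 0.403 RPM. The tissue label was checked against marker miRNAs: 6 of 6 heart muscle miRNAs were detected, with a summed level of 400920 to 503987 RPM over the 6 libraries, whereas the liver marker miR-122 lay between 0 and 1.17 RPM. In all, 193 miRNAs had a mean of at least 10 RPM and were tested between the groups with limma on log2(RPM + 1). Of the 10 members, 8 passed this filter, and miR-92a and miR-19a lay below it.

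The members spanned a wide range of levels within each library. miR-93 was the most abundant, at 392, 692 and 581 RPM in the 3 WT libraries and 570, 592 and 619 RPM in the mutants. miR-20a followed at 253, 364 and 361 RPM in WT against 349, 353 and 312 RPM in the mutants. In both miRNAs WT replicate 1 was the lowest library and the mutants lay between the lowest and the highest WT library.

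miR-106b stood at 196, 253 and 230 RPM in WT against 266, 204 and 175 RPM in the mutants. miR-17, the founding member of the seed family, stood at 103, 185 and 193 RPM in WT against 169, 217 and 214 RPM in the mutants. For miR-106b the mutants spread wider than WT on both sides, and for miR-17 the groups overlapped only because mutant replicate 1 lay below WT replicates 2 and 3. miR-25, which carries the miR-92 seed, stood at 86.4, 123 and 124 RPM in WT against 133, 120 and 101 RPM in the mutants, with overlap.

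The remaining members were far lower. miR-17*, the opposite arm of miR-17, stood at 11.8, 18.3 and 13.6 RPM in WT against 14.8, 15.9 and 21.3 RPM in the mutants. miR-18a stood at 10.4, 13.98 and 12.1 RPM in WT against 23.0, 15.9 and 15.7 RPM in the mutants. All 3 mutants lay above all 3 WT libraries for miR-18a, and the groups overlapped for miR-17*.

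miR-19b went the other way, at 15.9, 13.98 and 17.8 RPM in WT against 11.5, 12.8 and 10.1 RPM in the mutants, with all 3 mutants below all 3 WT libraries. miR-92a was read only 5, 19 and 26 times in WT against 8, 12 and 8 times in the mutants, or 1.37, 5.11 and 4.98 RPM against 1.87, 2.89 and 3.22 RPM. miR-19a was read 10, 2 and 19 times in WT against 10, 5 and 3 times in the mutants, or 2.74, 0.538 and 3.64 RPM against 2.34, 1.20 and 1.21 RPM. The groups overlapped for both miRNAs, and counting error alone was large: in WT replicate 1 the 5 reads of miR-92a have an exact 95% binomial (Clopper-Pearson) interval of 0.445 to 3.20 RPM. Such intervals cover counting error only.

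**Figure D1:**
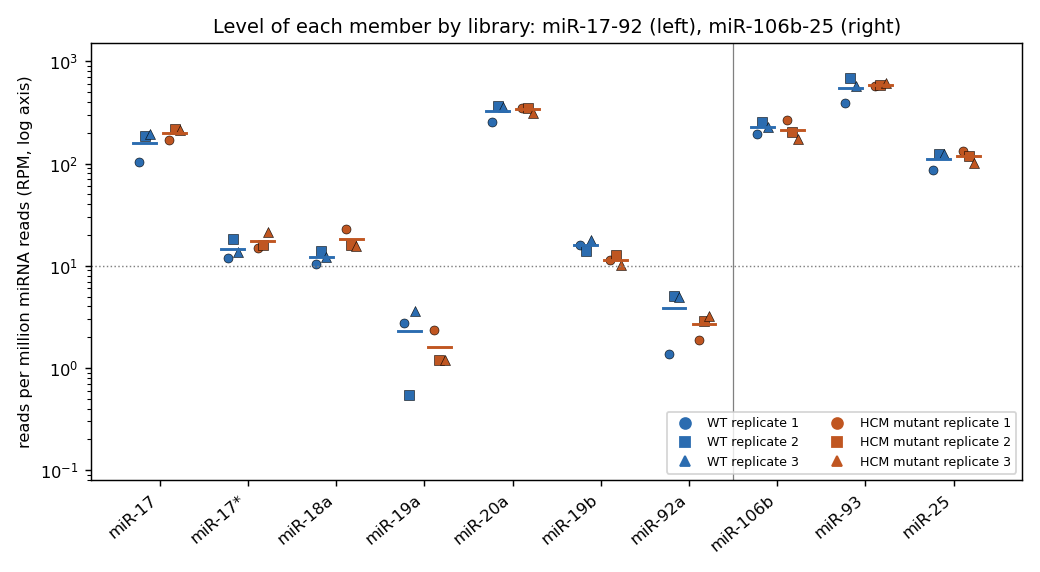
Level of the 10 members in each library in RPM on a log axis, WT in blue and HCM mutant in orange, with marker shape for the replicate number and a bar for the group mean. The dotted line marks the filter at 10 RPM, which miR-19a and miR-92a do not reach, and the groups separate for miR-18a and miR-19b.

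The order of the levels was largely kept from library to library. miR-93 exceeded miR-20a in 6 of 6 libraries, and their ranges did not overlap. miR-20a exceeded miR-106b, and miR-17 exceeded miR-25, within each of the 6 libraries, although in both cases the ranges across libraries overlapped. miR-106b exceeded miR-17 in 4 of 6 libraries, so these neighbours did not differ beyond their spread. miR-25 stood 7.18-fold above miR-17* by their means, with no overlap of ranges, whereas miR-17*, miR-18a and miR-19b could not be ordered. miR-19b was 4.22-fold above miR-92a without overlap, and miR-92a exceeded miR-19a in 4 of 6 libraries. All are 21 to 23 nt long, and RPM was not divided by length. How far library preparation favours one sequence or length over another was not measured.

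Members cut from 1 primary transcript differed widely in level. Along Mir17hg the mean over the 6 libraries was 180 RPM for miR-17, 15.2 RPM for miR-18a, 1.95 RPM for miR-19a, 332 RPM for miR-20a, 13.7 RPM for miR-19b and 3.24 RPM for miR-92a. The levels neither rose nor fell steadily along the transcript: miR-17 and miR-20a were high, and each was followed by members at a small part of its level. Within Mcm7 the 3 members stayed closer together, at 221 RPM for miR-106b, 574 RPM for miR-93 and 115 RPM for miR-25.

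**Figure D2:**
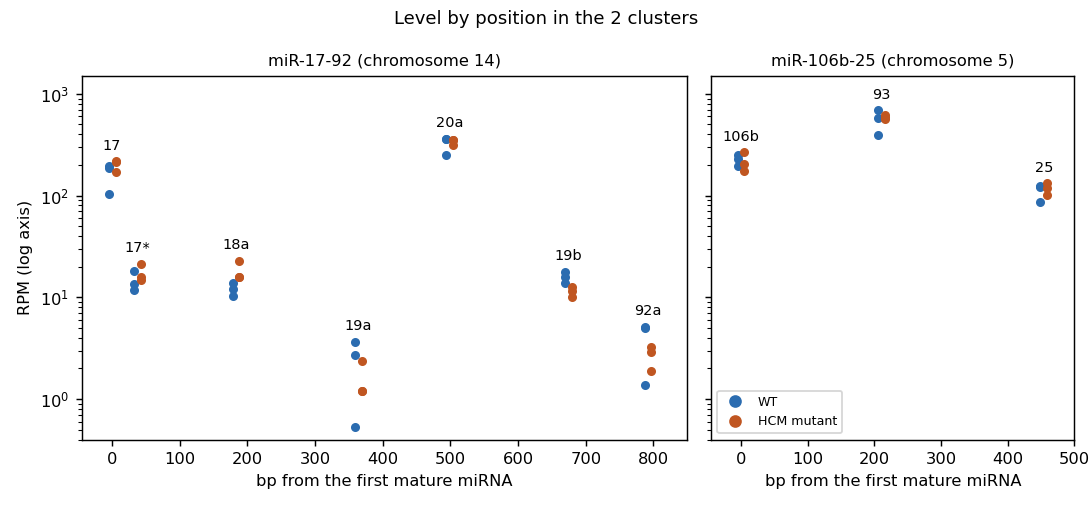
RPM on a log axis against the distance in bp of each mature miRNA from the first one of its cluster, in the direction of transcription, for the miR-17-92 cluster and the miR-106b-25 cluster. Each point is 1 library, WT in blue and HCM mutant in orange. miR-17 and miR-20a stand above their neighbours miR-18a, miR-19a, miR-19b and miR-92a in both groups.

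Grouped by seed, the miR-17 seed dominated. Its 4 members together stood at 944, 1493 and 1366 RPM in WT against 1354, 1367 and 1321 RPM in the mutants. They held 88.7% ± 0.765 (SD, n = 3) of the summed reads of the 10 members in WT against 88.9% ± 0.861 (n = 3) in the mutants. The 2 members with the miR-92 seed, miR-25 and miR-92a, held 8.07% ± 0.356 and 7.94% ± 0.816, and nearly all of this came from the Mcm7 cluster. Of the sum of these 2, miR-25 made up 96.9% ± 1.37 in WT against 97.7% ± 0.844 in the mutants. The summed level of the miR-19 seed, which has no member in the miR-106b-25 cluster, was 18.6, 14.5 and 21.4 RPM in WT against 13.8, 13.96 and 11.3 RPM in the mutants. This sum separated the groups, with the mutants lower, as miR-19b does, which makes up most of it. As a share of the 10 the miR-19 seed overlapped between the groups, at 1.74%, 0.870% and 1.39% in WT against 0.898%, 0.910% and 0.765% in the mutants. No test was made on these sums.

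Grouped by cluster, the 7 mature miRNAs of miR-17-92 summed to 398, 600 and 607 RPM in WT against 572, 619 and 578 RPM in the mutants. The 3 of miR-106b-25 summed to 674, 1068 and 935 RPM in WT against 968, 916 and 896 RPM in the mutants. WT replicate 1 was the lowest library for both sums, and the mutants lay inside the range of WT for miR-106b-25. The ratio of the miR-106b-25 sum to the miR-17-92 sum was 1.67 ± 0.120 (SD, n = 3) in WT against 1.57 ± 0.110 (n = 3) in the mutants. Within the miR-17-92 sum, miR-20a held 61.3% ± 2.13 in WT against 57.4% ± 3.49 in the mutants, and miR-17 held 29.5% ± 3.26 and 33.9% ± 3.83.

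Between the genotypes 0 of the 8 tested members passed (limma, Benjamini-Hochberg adjusted p under 0.05), whereas 10 of all 193 tested miRNAs, or 5.18%, passed, all of them higher in the mutant. At an unadjusted p under 0.05 there were 0 of 8 members, with a smallest p of 0.0531 (limma), against 42 of 193 (21.8%) over the table. That zero depended on the setting: in 8 of the 17 alternatives the smallest unadjusted p of a member was under 0.05, at 0.0220 with median-of-ratios scaling (limma), 0.0337 with edgeR and 0.0401 with DESeq2. After adjustment the quasi-likelihood test of edgeR and DESeq2, both on recovered whole reads, called 0 of the 8. The count over the table depended on single libraries: it was 5, 22 and 1 without WT replicates 1, 2 and 3, and 24 without mutant replicate 1. With median-of-ratios scaling, which sets each library to the median miRNA, it was 5, of which 4 were higher and 1 lower in the mutant, and DESeq2 called 8 higher and 4 lower. The median log2 difference of the 8 was 0.12, where that of all tested miRNAs was 0.15, and 6 of the 8 lay above 0, where 137 of 193 did (71.0%). The moderated standard errors of the 8 lay between 0.23 and 0.27 on the log2 scale.

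miR-18a and miR-19b did not pass, and which of them differed more changed with the scaling: miR-18a on deposited RPM, and miR-19b with median-of-ratios and TMM scaling, edgeR and DESeq2. miR-18a had a mean of 12.2 ± 1.78 RPM (SD, n = 3) for WT against 18.2 ± 4.14 RPM (n = 3) for the mutant. On the log2(RPM + 1) scale, which understates differences of miRNAs with few reads, this was 0.53 ± 0.27 (SE; 95% interval −0.0076 to 1.07; limma adjusted p = 0.233). miR-19b differed by −0.44 ± 0.26 (95% interval −0.97 to 0.090; limma adjusted p = 0.346), with means of 15.9 ± 1.91 RPM in WT against 11.4 ± 1.35 RPM in the mutant. The groups did not overlap for these 2 of 8 members. Over all tested miRNAs the groups did not overlap for 40 of 193 (20.7%), with the mutants above WT for 35 (18.1%) and below for 5 (2.59%). The share among the members was therefore close to that of the table. The values of miR-18a rest on 153 reads in WT against 203 in the mutants, and those of miR-19b on 203 and 127. Exact 95% binomial intervals of the libraries nearest the gap overlapped for both. For miR-18a they were 10.4 to 18.3 RPM in WT replicate 2 and 11.2 to 21.5 RPM in mutant replicate 3. For miR-19b they were 10.4 to 18.3 RPM in WT replicate 2 and 9.56 to 16.7 RPM in mutant replicate 2.

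miR-17 had means of 160 ± 50.1 RPM in WT against 200.2 ± 26.7 RPM in the mutant, a log2 difference of 0.37 ± 0.25 (limma adjusted p = 0.426; 95% interval −0.14 to 0.87). For miR-17* the log2 difference was 0.24 ± 0.27 (95% interval −0.30 to 0.79). It was 0.090 without mutant replicate 3, 0.11 without WT replicate 1 and 0.41 without WT replicate 2, and 0.070 with median-of-ratios scaling, which gave 0.18 for miR-17. The other 4, miR-93, miR-25, miR-20a and miR-106b, lay at 0.14, 0.098, 0.070 and −0.088, with 95% intervals that together ran from −0.56 to 0.60. These intervals leave room for changes of either sign.

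**Figure D3:**
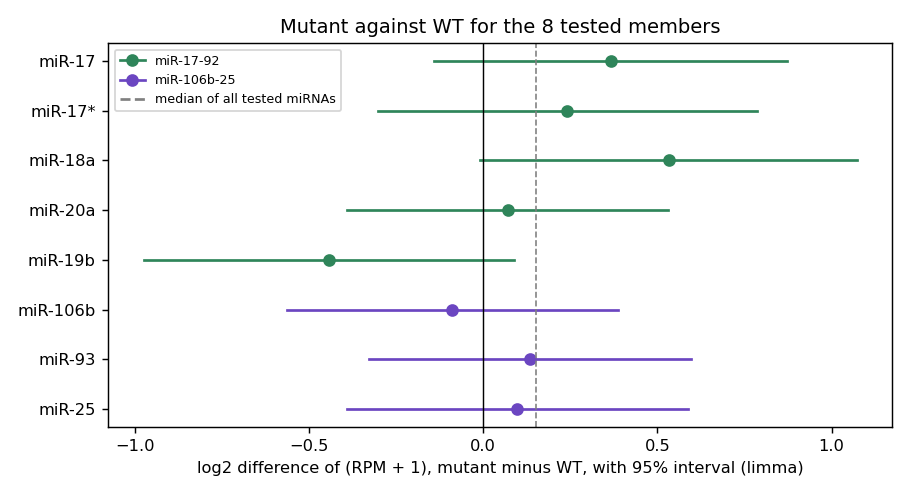
Log2 difference of (RPM + 1), mutant minus WT, for the 8 tested members, with the 95% interval from limma, the miR-17-92 cluster in green and the miR-106b-25 cluster in purple. The dashed line is the median of all tested miRNAs, 0.15, and all 8 intervals include 0.

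Relative to the median of all tested miRNAs, miR-18a differed by 0.38 and miR-19b by −0.59. Median-of-ratios scaling moved that median from 0.15 to −0.024. Under this scaling the log2 difference was 0.36 for miR-18a and −0.61 for miR-19b, and the groups stayed apart for both. With TMM scaling they stayed apart for miR-18a and overlapped for miR-19b. miR-20a and miR-25 were above 0 on deposited RPM and below 0 under both of these scalings, and miR-93 was below 0 under median-of-ratios scaling.

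On deposited RPM, WT replicate 1 stood apart for the abundant members. For the 5 members with a mean of at least 100 RPM, its median log2 deviation from the mean of the 6 libraries was −0.39, whereas the other libraries lay between −0.077 and 0.14. Of these 5, miR-93, miR-20a, miR-17 and miR-25 were lowest there, and miR-106b was lowest in mutant replicate 3. With WT replicate 1 left out, miR-17 differed by 0.074, and miR-20a, miR-93 and miR-25 by −0.10, −0.095 and −0.072. The heart muscle markers summed to 495913 RPM in that library, and to 425038 and 503987 RPM in WT replicates 2 and 3. In the mutants they summed to 423471, 463232 and 400920 RPM. After median-of-ratios scaling the deviation of WT replicate 1 was −0.19, close to −0.18 in mutant replicate 3, and that of WT replicate 3 was 0.32. By this median WT replicate 1 no longer stood apart, but it was still the lowest library for miR-17 and miR-93. There miR-17 stood at 119 scaled RPM and miR-93 at 453, against 159 and 536 in mutant replicate 1, the next lowest. With TMM scaling the deviation of WT replicate 1 was −0.30, and the next lowest was −0.14 in mutant replicate 3. The cause was not tested.

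**Figure D4:**
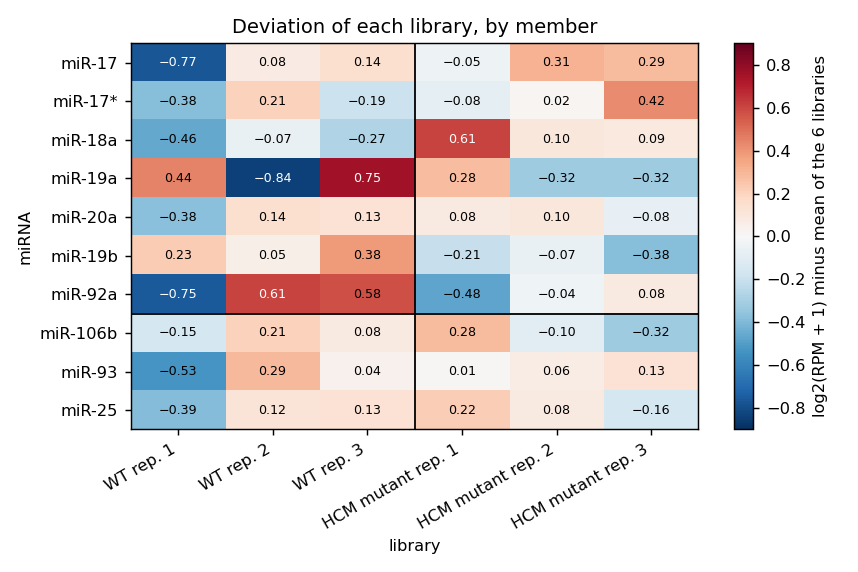
Deviation of log2(RPM + 1) from the mean of the 6 libraries, for each member (rows) and library (columns), blue for low and red for high. WT replicate 1 is low for 8 of the 10 members and above its row mean for miR-19a and miR-19b, and the rows of miR-19a and miR-92a rest on few reads.

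Levels were also set against one another within each library. For 6 ratios of 2 miRNAs, log2 ratios with 1 RPM added to both levels were compared between the genotypes with a two-sided exact permutation test over 20 assignments, which allows no p below 0.1. The ratio of miR-92a to miR-17, from opposite ends of Mir17hg, was 0.0134, 0.0277 and 0.0257 in WT against 0.0111, 0.0133 and 0.0151 in the mutants. On that log2 scale all 3 mutants lay below all 3 WT libraries, by 0.66 in the mean, from −5.13 ± 0.28 (SD, n = 3) to −5.79 ± 0.11 (n = 3; exact permutation p = 0.1, adjusted over the 6 ratios 0.6). This separation came with the added 1 RPM: on plain RPM mutant replicate 3 lay above WT replicate 1, and the exact permutation p adjusted over the 6 was 0.8. The ratio of miR-20a to miR-17, 2 miRNAs of 1 seed and 1 transcript, was 2.47, 1.97 and 1.87 in WT against 2.06, 1.63 and 1.46 in the mutants. The groups overlapped for this ratio (log2 difference −0.30, exact permutation p = 0.3, adjusted 0.8).

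The other 4 ratios overlapped between the groups as well, each with an adjusted exact permutation p of 0.8. miR-106b stood at 0.50, 0.365 and 0.397 of miR-93 in WT against 0.467, 0.344 and 0.283 in the mutants. miR-25 stood at 0.220, 0.177 and 0.213 of miR-93 in WT against 0.233, 0.203 and 0.164 in the mutants. miR-17* stood at 0.115, 0.0990 and 0.0703 of miR-17 in WT against 0.0871, 0.0731 and 0.0998 in the mutants. miR-19a stood at 0.172, 0.0385 and 0.204 of miR-19b in WT against 0.204, 0.0943 and 0.120 in the mutants, where the lowest value rests on 2 reads. Chosen after the values were seen and not tested, the ratio of miR-18a to miR-19b was 0.655, 1.0 and 0.677 in WT against 2.0, 1.25 and 1.56 in the mutants.

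Both arms of the Mir17 hairpin printed above were read. Over the 6 libraries miR-17* made up 7.93% of the reads of its precursor, from 6.57% to 10.3% in single libraries. The minor arm was 0.215% of miR-93's precursor, 0.139% of miR-20a's and 0.0379% of miR-106b's, from 29, 11 and 2 reads. For miR-18a it was 1 of 357 reads. For miR-19a it was 0 of 49 reads, which allows a share of up to 6.12% by 3 reads and 7.25% by the exact 95% (Clopper-Pearson) bound. The row named miR-92a* matches the arm of the chromosome X copy only and was at 0 in all libraries.

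Of 18 further miRNAs and opposite arms listed from the 3 clusters and their seeds, 13 were in the table, 9 were detected and 0 passed the filter. miR-106a, which differs from miR-17 by U10A alone when miR-17 is read first, had a mean of 0.870 RPM, and miR-20b 1.15 RPM. Both share the miR-17 seed and come from the chromosome X cluster, so nearly all reads of this seed were assigned to members on chromosomes 14 and 5. miR-18b of the same cluster was at 0 in all libraries. Of the miR-92 seed, miR-32 had a mean of 2.76 RPM, miR-363 of 2.67 RPM and miR-92b of 1.05 RPM. miR-367, which has the same seed and was not among the 18, was at 0 in all libraries. miR-363, the last miRNA of the chromosome X cluster, stood at 2.47, 1.88 and 1.53 RPM in WT against 2.81, 2.89 and 4.43 RPM in the mutants, without overlap, from 24 and 35 reads. When every detected miRNA was tested it differed by 0.56 ± 0.34 (limma adjusted p = 0.499), and in that fit miR-19a and miR-92a differed by −0.24 ± 0.36 and −0.29 ± 0.38 (limma adjusted p = 0.810 for both).

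How steadily members kept step with one another was described by the SD, over the 6 libraries, of the log2 ratio of 2 miRNAs. A small SD means that the ratio stayed nearly constant, whether both miRNAs moved together or both varied little. Any difference between the genotypes is part of this SD. Among the 10 pairs of the 5 abundant members the median SD was 0.20, where that of all 5671 pairs of the 107 miRNAs at 100 RPM or more was 0.34. The steadiest pair was miR-20a and miR-25 (0.075), which share neither cluster nor seed, and the least steady was miR-17 and miR-106b (0.46), which share the seed. Pairs within a cluster had a median SD of 0.23 and pairs across clusters 0.20. Pairs of 1 seed had 0.23 and pairs of different seeds 0.18. By these medians there was no closer step within a cluster or a seed than between them. All pairs share the same 6 libraries and their scaling.

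Among all tested miRNAs, the 3 that kept closest step with miR-17 were miR-30a (SD 0.079), miR-29a* (0.14) and miR-27b (0.16). For miR-93 they were miR-151-5p (0.10), miR-7a (0.12) and miR-1198 (0.13), and for miR-25 they were miR-20a (0.075), miR-365 (0.13) and miR-193b (0.13). For miR-19b they were miR-185 (0.085), miR-190 (0.14) and miR-1 (0.14), the last an abundant miRNA of muscle. For miR-92a the closest were miR-153 (0.26), miR-194 (0.30) and miR-215 (0.31), larger values from a miRNA of few reads. miR-20a was the single member among these neighbours.

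Marker miRNAs of other cell types were measured beside the members. The 4 fibroblast miRNAs miR-21, miR-214, miR-199a-5p and miR-199a-3p summed to between 1613 and 3040 RPM in WT against between 3931 and 8512 RPM in the mutants, without overlap. Of these 4, 3 passed (limma), where 10 of all 193 tested miRNAs did. Because the lists were chosen with earlier results of these data known, this count is no test of the cell type. The endothelial pair summed to 26942 to 38273 RPM in WT against 30476 to 37224 RPM in the mutants, and the 6 blood and immune miRNAs to 3251 to 4360 and 4027 to 4613 RPM, both with overlap. The blood and immune sum pools members that went in opposite directions. On the log2 scale miR-142-3p, miR-142-5p and miR-223 differed by 0.70, 0.74 and 0.55. For miR-451, miR-144 and miR-486 the differences were −0.33, −0.21 and −0.10. Of these 6 only miR-142-3p passed (limma adjusted p = 0.0333). The neuronal pair summed to 15.3 to 16.3 RPM in WT against 18.04 to 21.4 RPM in the mutants, without overlap. Of this pair miR-9 differed by 0.29 and did not pass (limma adjusted p = 0.539). The sum of the 2 smooth muscle miRNAs overlapped, with miR-143 at 0.14 and miR-145 at −0.30, and neither passed. The 6 heart muscle miRNAs of the tissue check summed to 425038 to 503987 RPM in WT against 400920 to 463232 RPM in the mutants, with overlap. That sum also pools opposite directions. miR-208b differed by 0.63 and passed (limma adjusted p = 0.0282), and miR-208a differed by 0.062. For miR-499, miR-1 and miR-133a the differences were −0.55, −0.30 and −0.14, and none of them passed. All members of these lists were detected. The part of these cell types in the values of miR-18a and miR-19b was not tested. In whole tissue, fewer cells of a type and less RNA per cell cannot be told apart.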

How the data were processed

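The deposited table gives each mature miRNA in RPM, reads per 1000000 miRNA reads of the library. The file header calls the columns normalised only, and the unit was worked out from the values: each column sums to 1000000 RPM within a few reads, and 100% of the values in each library are whole multiples of 1 step within 0.02 reads, which gave the whole reads. RNA was isolated with a miRNA kit and made into multiplexed libraries, per the labels' protocols. Aligner, counter and build: not given in the sources used here. Members and lists were chosen with earlier results of these data known.

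RPM was tested as log2(RPM + 1) where the mean reached 10 RPM, in all 6 libraries and without covariates, with limma 3.58.1 (R 4.3.3, trend, two-sided, adjusted over 193 miRNAs, threshold 0.05). Alternatives were pseudocounts of 0.5 and 10, no filter, a mean of at least 100 RPM, 3 scalings, no trend, leaving out each library, a replicate block, and edgeR 4.0.16 and DESeq2 1.42.0 on the recovered reads. The steps were also run on simulated reads. These had as many miRNAs raised as lowered and no shift between libraries, and no result here rests on them. Counts differed beyond sampling noise in all 15 library pairs. All members were named. The neighbours were the 3 tested miRNAs with the smallest SD of the log2 ratio. Other tools were scipy 1.17.1, pandas 2.3.3, matplotlib 3.10.9 and Python 3.11.15. Since RPM is a share, a change of the most abundant miRNAs shifts the others.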

Additional observations from a re-analysis of the deposited data

How the results depend on the processing

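In all 17 alternatives 0 members passed, with a smallest adjusted p of 0.120, without WT replicate 2 (0.163 with median-of-ratios scaling). miR-18a lay between 0.34 and 0.63 and miR-19b between −0.67 and −0.27. Of 133 alternative values of single members 16 changed sign, none past the threshold. miR-20a was −0.11 with median-of-ratios scaling, −0.036 with TMM, −0.063 with totals without the 5 most abundant miRNAs, −0.052 with edgeR, −0.13 with DESeq2 and −0.10 without WT replicate 1 (leaving out 1 library, −0.10 to 0.16). In the same order miR-25 was −0.084, −0.0076, −0.034, −0.018, −0.091 and −0.072 (−0.072 to 0.20). miR-93 was −0.048 with median-of-ratios scaling, −0.068 with DESeq2 and −0.095 without WT replicate 1 (−0.095 to 0.31). miR-106b was 0.048 without mutant replicate 3 (−0.25 to 0.048).

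Of 54 alternative values of the ratios 4 changed sign when 1 library was left out: miR-17* over miR-17 (−0.32 to 0.037), miR-25 over miR-93 (−0.15 to 0.096) and miR-19a over miR-19b (−0.19 to 0.44). Over all miRNAs, against 10 calls, median-of-ratios scaling gave 5, TMM 4 and leaving out 1 library 1 to 24. WT replicates 1, 2 and 3 left out gave 5, 22 and 1, and mutant replicate 1 left out gave 24. The cause was not tested. The replicate block called 17 miRNAs and 0 members. The deviations of same-numbered libraries from their group means correlated at 0.505, −0.07 and 0.18. Between differently numbered libraries the correlation ran from −0.42 to 0.40. The labels do not say that the numbers pair animals. Depth limits miR-19a and miR-92a most, with 2 to 26 reads per library. It also limits miR-18a and miR-19b, with as few as 38 and 25 reads in a library.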
